A study of Rattus norvegicus with 8 samples.

Results

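The 36 genes described here belong to the piRNA pathway and to germ granules, and were measured in rat cells on the way from pluripotency to germ cell fate. The genes were taken from a fixed list of symbols, and all 36 were found among the 22228 named genes of the expression table. PIWI-interacting RNAs (piRNAs) are small RNAs of the germ line that guide PIWI proteins to transposon transcripts and to transposon DNA, so that these are cut or silenced. Long precursors are unwound, cut at the surface of mitochondria, trimmed and methylated at the end. The work is done in germ granules (nuage), which Tudor proteins hold together by binding methylated arginines of PIWI proteins. In rodents the pathway is best known from male fetal germ cells and spermatocytes, and most of its genes are silent in somatic tissues.

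RNA sequencing covered 4 groups with 2 libraries each, all of strain Crlj:WI and all listed as wild type. Embryonic stem cells (ESC) grew on mouse fibroblast feeders in N2B27 with PD0325901 at 1 µM, CHIR99021 at 3 µM and rat LIF at 1000 U/ml. Epiblast-like cells (EpiLC) were made from ESC over 60 h in medium that held 20 ng/ml activin A together with 12 ng/ml bFGF. Primordial germ cell-like cells of day 3 (PGCLC_d3) were EpiLC aggregates exposed to BMP4 at 500 ng/ml, SCF at 100 ng/ml, EGF at 50 ng/ml and the same LIF. From these, cells positive for a Nanos3-T2A-tdTomato reporter were sorted, although the genotype label does not name the reporter. For PGCLC_d3ag3, 5000 sorted day 3 cells joined 50000 cells of female gonads at E15.5, taken as somatic after depletion of germ cells positive for c-KIT, and reporter-positive cells were sorted again after 3 days. No label says that replicates were separate cultures, so p-values measure only the spread between these libraries, which may be technical. In sorted or mixed bulk samples, fewer cells that express a gene and less RNA per cell cannot be told apart.

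Values are TPM, a share of a library's transcripts that is scaled by gene length and allows levels of different genes to be compared. Differences are between group means of log2(TPM+1), which understates the change of genes with low values. Replicate libraries correlated at 0.9946 to 0.9975 (Pearson, across 13571 genes, which are not independent replicates). Steps between the lowest values put library depth, relative to ESC replicate 1, at 1.139 to 1.497 for the other ESC, EpiLC and PGCLC_d3 libraries and at 2.17 and 2.38 for PGCLC_d3ag3. Single markers of each state were as follows. Nanog averaged 922 ± 14.9 TPM in ESC and 4.89 ± 0.926 in EpiLC, Otx2 averaged 74.2 ± 0.479 in EpiLC and 0.398 ± 0.049 in ESC, and Prdm1 averaged 66.5 ± 1.55 in PGCLC_d3 and 0.204 ± 0.087 in EpiLC (SD, n = 2 each). Dazl, a gene of later germ cells, averaged 785 ± 30.4 TPM in PGCLC_d3ag3 and 0.369 ± 0.0302 in PGCLC_d3 (SD, n = 2 each). The 7 germ cell specification genes did not separate PGCLC_d3ag3 from ESC by their sum, which was 1411 to 1422 TPM in ESC, 60.2 to 71.6 in EpiLC, 1799 to 1820 in PGCLC_d3 and 1397 to 1440.0 in PGCLC_d3ag3. Dppa3, which naive pluripotent cells express too, averaged 1309 ± 4.495 TPM in ESC, 32.7 ± 8.44 in EpiLC, 382 ± 9.58 in PGCLC_d3 and 489 ± 30.2 in PGCLC_d3ag3 (SD, n = 2 each).

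ESC and EpiLC both held a partial piRNA programme, day 3 PGCLC held the least, and PGCLC after 3 days with gonadal cells held the fullest set. Members at 1 TPM or more in both libraries numbered 25 of 36 in ESC, 26 in EpiLC, 19 in PGCLC_d3 and 30 in PGCLC_d3ag3. Of all named genes, 50.4%, 52.2%, 54.1% and 51.8% met that level in the same order. Leaving out Prmt5, Wdr77 and Snd1, which most cell types express, the summed level of the other members was 288 and 325 TPM in ESC, 529 and 475 in EpiLC, 129 and 128 in PGCLC_d3, and 941 and 938 in PGCLC_d3ag3. Ddx4 and Tex15 made up a large part of the ESC and EpiLC sums. Their means were 54.7 and 108 TPM in ESC and 148 and 129 TPM in EpiLC. The highest group mean fell in PGCLC_d3ag3 for 21 members, in EpiLC for 6, in ESC for 5 and in PGCLC_d3 for 4. The lowest group mean was in PGCLC_d3 for 18 members. These counts of highest and lowest means were not set beside those of all genes. They also include Tdrd6, Gtsf1l, Spocd1 and Morc1, which were under 1 TPM in all libraries.

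**Figure D1:**
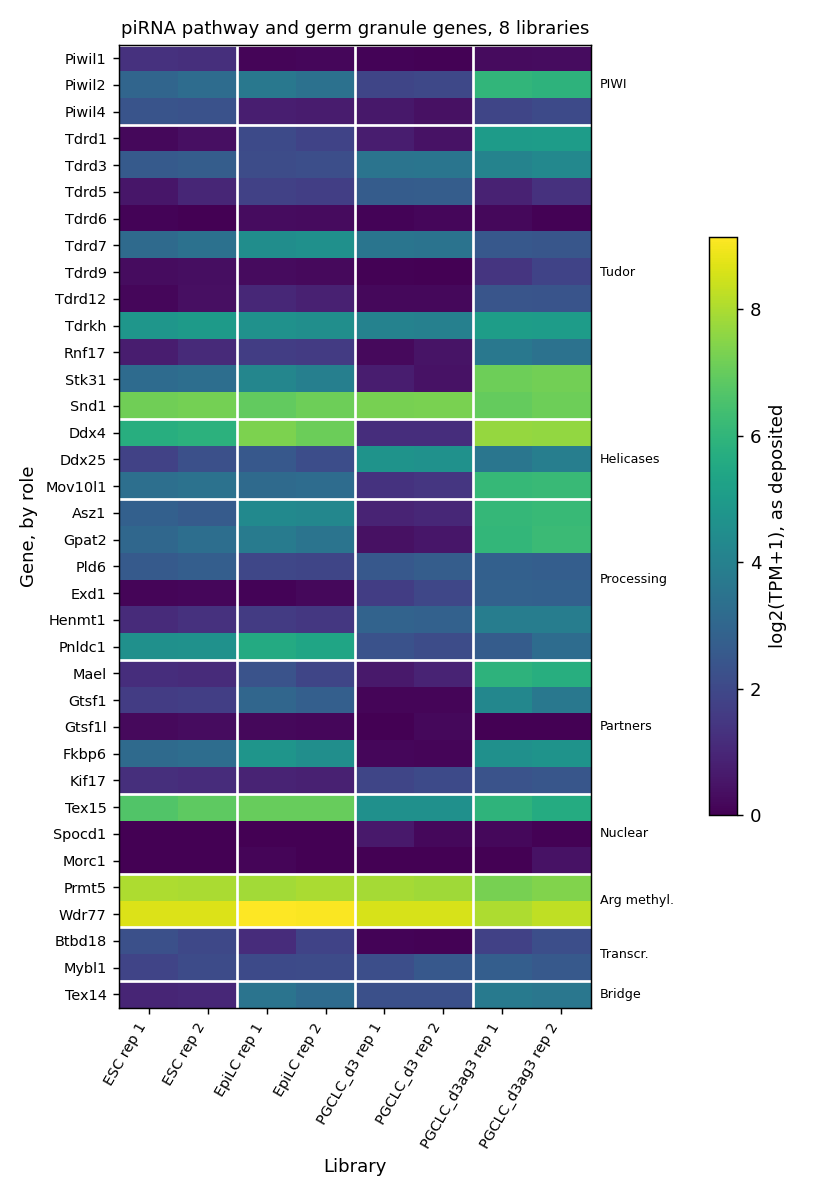
Heat map of log2(TPM+1) for the 36 genes (rows, grouped by role) in the 8 libraries (columns, 2 per group), with colour from 0 (dark) upward. Stk31, Ddx4, Mov10l1, Asz1, Gpat2, Mael, Gtsf1 and Fkbp6 are dark in the PGCLC_d3 columns and brighter in the PGCLC_d3ag3 columns, and Prmt5, Wdr77 and Snd1 are bright in all 8 libraries.

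The 3 PIWI genes differed in level and in pattern. Piwil2, whose protein (MILI in mouse) takes part in the cutting of transposon transcripts, stood at 6.81 and 8.34 TPM in ESC, 11.8 and 9.703 in EpiLC, 2.79 and 2.93 in PGCLC_d3, and 63.6 and 59.5 in PGCLC_d3ag3. Its PGCLC_d3ag3 libraries lay far above all others and its PGCLC_d3 libraries below all others. Piwil4, whose protein (MIWI2 in mouse) acts in the nucleus of fetal male germ cells in piRNA-guided DNA methylation, stood at 4.14 and 3.99 TPM in ESC, 0.718 and 0.631 in EpiLC, 0.497 and 0.319 in PGCLC_d3, and 2.76 and 3.196 in PGCLC_d3ag3. ESC held the highest Piwil4 values, with PGCLC_d3ag3 next and no overlap between these groups. Piwil1, whose protein (MIWI in mouse) belongs to later spermatogenesis, stood at 1.49 and 1.36 TPM in ESC, 0.0898 and 0.105 in EpiLC, 0.059 and 0.046 in PGCLC_d3, and 0.205 and 0.242 in PGCLC_d3ag3, and reached 1 TPM in ESC alone. The log2 difference of Piwil2 between PGCLC_d3ag3 and PGCLC_d3 was 4.02 (SE 0.129, adjusted p = 1.58e-08), a 21.5-fold ratio of mean TPM, and that of Piwil4 was 1.5 (SE 0.128, adjusted p = 5.13e-06). Piwil1 did not pass there (0.22, adjusted p = 0.0955), although it did with a pseudocount of 0.1 (adjusted p = 0.0131), without trend (adjusted p = 0.0259) and without the filter on low values (adjusted p = 0.0138).

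Ddx4 encodes the helicase VASA, a core germ granule protein and a classic germ cell marker. Its level was 51.7 and 57.6 TPM in ESC, 162 and 134 in EpiLC, 1.301 and 1.28 in PGCLC_d3, and 204 and 201 in PGCLC_d3ag3. Both PGCLC_d3 libraries lay over 1 order of magnitude below every other library, and the EpiLC libraries lay above ESC and below PGCLC_d3ag3. The log2 difference was 1.42 (SE 0.096, adjusted p = 7.46e-07) between EpiLC and ESC, -6.02 (SE 0.096, adjusted p = 1.08e-10) between PGCLC_d3 and EpiLC, and 6.47 (SE 0.096, adjusted p = 3.52e-10) between PGCLC_d3ag3 and PGCLC_d3. Mov10l1, the helicase that binds piRNA precursors, was at 9.15 and 9.92 TPM in ESC, 7.83 and 8.33 in EpiLC, 1.55 and 1.75 in PGCLC_d3, and 69.1 and 71.8 in PGCLC_d3ag3. EpiLC lay below ESC without passing (-0.21, adjusted p = 0.0999, but 0.0394 after median-of-ratios scaling), and PGCLC_d3ag3 stood 42.6-fold above PGCLC_d3 (log2 difference 4.75, SE 0.106, adjusted p = 2.4e-09). Tdrd9, a helicase with a Tudor domain that works with MIWI2 in mouse, was at 0.244 and 0.268 TPM in ESC, 0.2100 and 0.163 in EpiLC, 0.035 and 0.013 in PGCLC_d3, and 1.63 and 2.54 in PGCLC_d3ag3, and only its PGCLC_d3ag3 libraries reached 1 TPM.

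A different course was seen for Ddx25, a helicase of the testis that in mouse is needed for sperm formation. It was at 2.47 and 3.68 TPM in ESC, 4.67 and 3.49 in EpiLC, 25.1 and 23.7 in PGCLC_d3, and 11.2 and 14.1 in PGCLC_d3ag3, so the PGCLC_d3 libraries were the highest and PGCLC_d3ag3 came next without overlap. Its log2 difference was 2.33 (SE 0.179, adjusted p = 1.41e-06) between PGCLC_d3 and EpiLC and -0.91 (SE 0.179, adjusted p = 0.00126) between PGCLC_d3ag3 and PGCLC_d3. In the RefSeq annotation of GRCr8 Ddx25 overlaps Pus3, and the sources used here do not say that counting used strand, so reads of the overlap cannot be told apart. Pus3 was at 48.7 and 51.8 TPM in PGCLC_d3 and at 45.6 and 46.7 TPM in EpiLC. Pus3 and the other overlap partners named here were chosen after their values were seen.

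**Figure D2:**
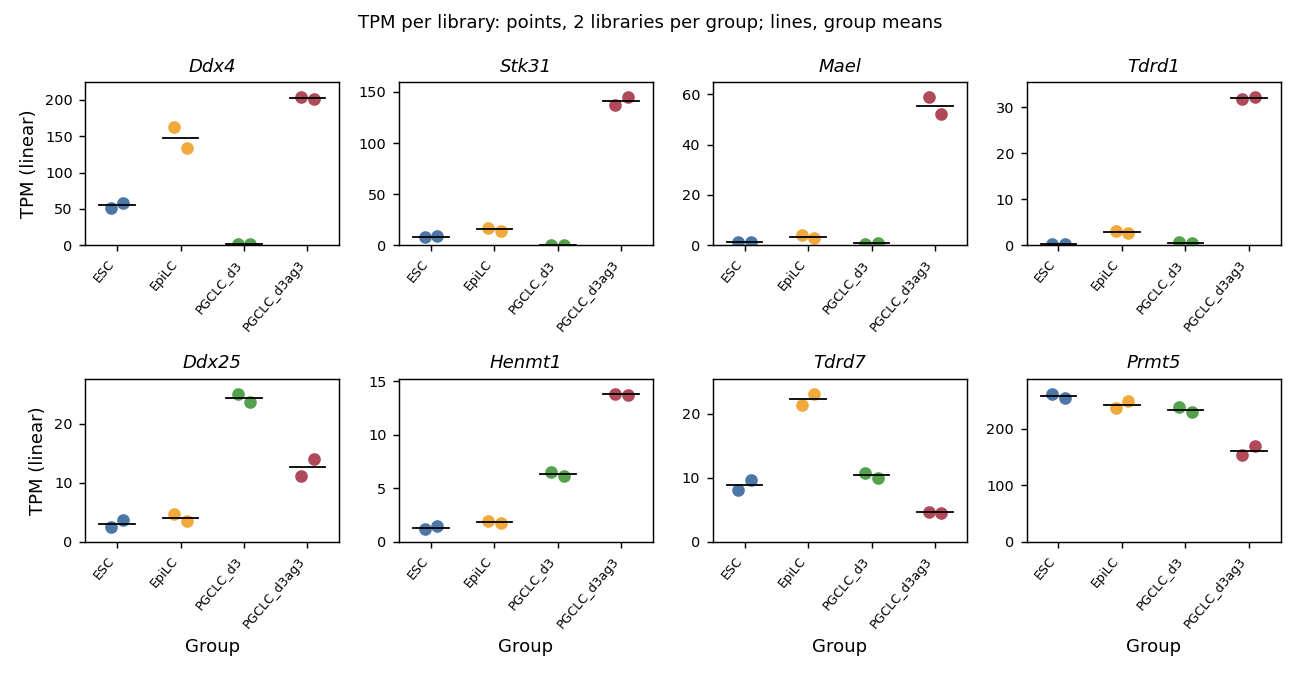
TPM per library (linear axes from 0) for 8 of the genes, with 2 points per group and a line at the group mean. Ddx4, Stk31, Mael and Tdrd1 are lowest or near their lowest in PGCLC_d3 and highest in PGCLC_d3ag3, Ddx25 is highest in PGCLC_d3, Henmt1 is highest in PGCLC_d3ag3, Tdrd7 is highest in EpiLC, and Prmt5 stays between 153 and 261 TPM.

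Tudor genes split into those that came up with aggregation and those that did not. Stk31, which encodes a protein with a Tudor and a kinase-like domain, was at 8.07 and 8.79 TPM in ESC, 17.2 and 14.3 in EpiLC, 0.649 and 0.353 in PGCLC_d3, and 138 and 145 in PGCLC_d3ag3. Tdrd1, a scaffold of the granules between mitochondria that binds MILI in mouse, was at 0.1503 and 0.302 TPM in ESC, 3.15 and 2.62 in EpiLC, 0.6702 and 0.363 in PGCLC_d3, and 31.7 and 32.2 in PGCLC_d3ag3. Rnf17, a Tudor protein that mouse spermatids need, was at 0.654 and 1.12 TPM in ESC, 2.195 and 2.04 in EpiLC, 0.182 and 0.383 in PGCLC_d3, and 11.7 and 9.94 in PGCLC_d3ag3. All 3 had non-overlapping groups in the order PGCLC_d3ag3, EpiLC, then PGCLC_d3, and PGCLC_d3ag3 exceeded PGCLC_d3 by log2 6.57 (SE 0.132, adjusted p = 1.99e-09) for Stk31, 4.45 (SE 0.147, adjusted p = 1.81e-08) for Tdrd1 and 3.21 (SE 0.159, adjusted p = 1.88e-07) for Rnf17. Tdrd12, which is needed for secondary piRNA production in mouse, was at 0.118 and 0.293 TPM in ESC, 1.02 and 0.788 in EpiLC, 0.152 and 0.155 in PGCLC_d3, and 4.26 and 4.202 in PGCLC_d3ag3. Its PGCLC_d3ag3 libraries were the only pair with both at 1 TPM or more. In GRCr8 Tdrd1 overlaps Ccdc186, which was at 9.69 and 7.82 TPM in PGCLC_d3ag3 and at 7.28 and 7.41 TPM in PGCLC_d3.

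Other Tudor genes moved less or in other directions. Tdrkh, which sits on mitochondria and recruits the trimming enzyme, was at 27.1 and 30.3 TPM in ESC, 23.4 and 21.98 in EpiLC, 15.6 and 14.7 in PGCLC_d3, and 32.8 and 31.8 in PGCLC_d3ag3. Its lowest values, in PGCLC_d3, averaged 46.9% of the PGCLC_d3ag3 mean. Tdrd3, a widely expressed Tudor protein, was at 4.98 and 5.404 TPM in ESC, 3.35 and 3.54 in EpiLC, 10.4 and 10.7 in PGCLC_d3, and 15.97 and 18.04 in PGCLC_d3ag3, and both PGCLC groups lay above ESC and EpiLC. Tdrd5, which shapes the granules of mouse spermatocytes, was at 0.451 and 0.962 TPM in ESC, 2.44 and 2.28 in EpiLC, 5.36 and 5.46 in PGCLC_d3, and 0.849 and 1.48 in PGCLC_d3ag3. Tdrd7, a granule protein of spermatids and of the lens, was at 8.05 and 9.68 TPM in ESC, 21.4 and 23.1 in EpiLC, 10.7 and 10.04 in PGCLC_d3, and 4.73 and 4.47 in PGCLC_d3ag3. These last 2 genes were higher in PGCLC_d3 than in PGCLC_d3ag3, with log2 differences of -1.58 (SE 0.181, adjusted p = 3.57e-05) and -1.02 (SE 0.119, adjusted p = 3.86e-05) between PGCLC_d3ag3 and PGCLC_d3. Snd1, a nuclease and Tudor protein found in most cells, was at 141 and 150.1 TPM in ESC, 124 and 139 in EpiLC, 151 and 158 in PGCLC_d3, and 124 and 138 in PGCLC_d3ag3, with PGCLC_d3 above the rest, PGCLC_d3ag3 and EpiLC overlapping, and log2 differences of at most 0.24 in size.

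Of the genes of precursor processing at mitochondria, Asz1 and Gpat2 rose in aggregated cells and Pld6 did not pass there as deposited (0.14, adjusted p = 0.327). Pld6 did pass after median-of-ratios scaling (0.323, adjusted p = 0.0344) and quantile normalization (0.506, adjusted p = 0.00316). Asz1, whose protein anchors nuage to mitochondria, was at 6.04 and 5.23 TPM in ESC, 19.04 and 17.8 in EpiLC, 0.896 and 1.03 in PGCLC_d3, and 67.7 and 69.7 in PGCLC_d3ag3. Gpat2, an outer membrane protein needed for primary piRNAs in mouse, was at 7.39 and 8.85 TPM in ESC, 13.02 and 10.6 in EpiLC, 0.328 and 0.455 in PGCLC_d3, and 65.5 and 73.3 in PGCLC_d3ag3. Both were near or under 1 TPM in PGCLC_d3, and PGCLC_d3ag3 exceeded PGCLC_d3 by log2 5.15 (SE 0.111, adjusted p = 2.11e-09) for Asz1 and 5.66 (SE 0.139, adjusted p = 3.35e-09) for Gpat2. Pld6, the mitochondrial nuclease that cuts precursors, was at 5.08 and 5.699 TPM in ESC, 2.83 and 2.74 in EpiLC, 4.78 and 5.52 in PGCLC_d3, and 5.96 and 5.61 in PGCLC_d3ag3. EpiLC held its lowest values, it fell in EpiLC against ESC (-0.76, SE 0.126, adjusted p = 0.000449), and it rose in PGCLC_d3 against EpiLC (0.70, SE 0.126, adjusted p = 0.000614).

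Enzymes that finish the piRNA end did not move together. Pnldc1, the trimming exonuclease, was at 23.1 and 23.7 TPM in ESC, 46.9 and 40.7 in EpiLC, 3.997 and 3.36 in PGCLC_d3, and 5.38 and 8.33 in PGCLC_d3ag3. It was highest in EpiLC, and its log2 difference between PGCLC_d3ag3 and EpiLC was -2.53 (SE 0.169, adjusted p = 4.16e-07). Henmt1, the methyltransferase that protects the trimmed end, was at 1.196 and 1.47 TPM in ESC, 1.98 and 1.797 in EpiLC, 6.53 and 6.18 in PGCLC_d3, and 13.8 and 13.7 in PGCLC_d3ag3. Henmt1 instead rose in PGCLC_d3 against EpiLC (1.35, SE 0.124, adjusted p = 5.06e-06) and again in PGCLC_d3ag3 against PGCLC_d3 (1.00, SE 0.124, adjusted p = 5.76e-05). Exd1, whose protein partners TDRD12 in mouse, was at 0.092 and 0.113 TPM in ESC, 0.053 and 0.144 in EpiLC, 2.198 and 2.86 in PGCLC_d3, and 6.07 and 5.95 in PGCLC_d3ag3. Exd1 was near 0 in both pluripotent groups and its log2 difference between PGCLC_d3 and EpiLC was 1.68 (SE 0.132, adjusted p = 1.67e-06).

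Partners of PIWI proteins were low in PGCLC_d3 apart from Kif17. Mael, a nuage protein needed to silence transposons, was at 1.31 and 1.18 TPM in ESC, 4.03 and 2.72 in EpiLC, 0.525 and 0.876 in PGCLC_d3, and 58.9 and 52.04 in PGCLC_d3ag3. Its PGCLC_d3ag3 mean was 79.2 times the PGCLC_d3 mean and 16.4 times the EpiLC mean. Fkbp6, a co-chaperone of the pathway, was at 7.96 and 8.74 TPM in ESC, 26.6 and 21.9 in EpiLC, 0.131 and 0.086 in PGCLC_d3, and 23.03 and 24.9 in PGCLC_d3ag3. EpiLC and PGCLC_d3ag3 overlapped for Fkbp6 (-0.01, SE 0.127, adjusted p = 0.936), and its log2 difference between PGCLC_d3 and EpiLC was -4.50 (SE 0.127, adjusted p = 1.83e-09). In GRCr8 Fkbp6 overlaps Trim50, which was at or under 1.17 TPM in all 8 libraries. Gtsf1, a zinc finger cofactor of PIWI proteins, was at 2.08 and 2.28 TPM in ESC, 7.04 and 5.78 in EpiLC, 0.087 and 0.101 in PGCLC_d3, and 17.6 and 11.6 in PGCLC_d3ag3. Kif17, a kinesin found in granules of mouse spermatids, was at 1.37 and 1.22 TPM in ESC, 0.858 and 0.802 in EpiLC, 2.800 and 3.15 in PGCLC_d3, and 4.09 and 4.502 in PGCLC_d3ag3, and it rose in PGCLC_d3 against EpiLC (1.12, SE 0.123, adjusted p = 1.92e-05).

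Among the genes that act in the nucleus, Tex15 was the only one to pass the filter on low values. Its protein is needed for piRNA-directed DNA methylation in mouse, and its level was 99.4 and 116 TPM in ESC, 130.1 and 129 in EpiLC, 23.3 and 22.8 in PGCLC_d3, and 60.3 and 48.8 in PGCLC_d3ag3. PGCLC_d3 was the lowest group, and the log2 difference between PGCLC_d3ag3 and EpiLC was -1.24 (SE 0.103, adjusted p = 2.11e-06). Spocd1, another factor of piRNA-directed DNA methylation, was listed at 0 in 4 libraries and reached at most 0.539 TPM. Morc1, a repressor of transposons, was listed at 0 in 6 libraries and reached at most 0.348 TPM. The remaining members that were not tested were Tdrd6, a scaffold of spermatid granules, at 0.013 to 0.234 TPM, and Gtsf1l, a relative of Gtsf1, at 0 to 0.235 TPM.

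Genes of arginine methylation were high in all groups. Prmt5, the enzyme that makes symmetric dimethylarginine on PIWI and many other proteins, was at 261 and 253 TPM in ESC, 235 and 249 in EpiLC, 238 and 229 in PGCLC_d3, and 153 and 169 in PGCLC_d3ag3. Wdr77, its partner subunit, was at 403 and 403 TPM in ESC, 564 and 549 in EpiLC, 383 and 383 in PGCLC_d3, and 261 and 307 in PGCLC_d3ag3. Both were lowest in PGCLC_d3ag3, and the log2 difference between PGCLC_d3ag3 and PGCLC_d3 was -0.53 (SE 0.062, adjusted p = 3.9e-05) for Prmt5 and -0.43 (SE 0.070, adjusted p = 0.000349) for Wdr77. The transcription regulator genes were low. Mybl1, which encodes the factor A-MYB that drives piRNA loci of spermatocytes in mouse, was at 2.71 and 3.302 TPM in ESC, 3.13 and 3.29 in EpiLC, 3.604 and 4.74 in PGCLC_d3, and 5.67 and 4.93 in PGCLC_d3ag3. Btbd18, which aids transcription of such loci in mouse, was at 3.73 and 2.94 TPM in ESC, 1.23 and 2.56 in EpiLC, 0.072 and 0.042 in PGCLC_d3, and 2.404 and 3.62 in PGCLC_d3ag3. Mybl1 did not pass in any of the 3 successive steps as deposited, but in PGCLC_d3ag3 against PGCLC_d3 it did after median-of-ratios scaling (0.462, adjusted p = 0.0163) and quantile normalization (0.647, adjusted p = 0.00269). Btbd18 was near 0 in PGCLC_d3 only. Tex14, which keeps the bridges between sister germ cells open, was at 0.904 and 1.05 TPM in ESC, 10.4 and 8.27 in EpiLC, 3.65 and 3.75 in PGCLC_d3, and 12.5 and 11.3 in PGCLC_d3ag3, and EpiLC exceeded ESC by log2 2.38 (SE 0.138, adjusted p = 2.44e-07).

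**Figure D3:**
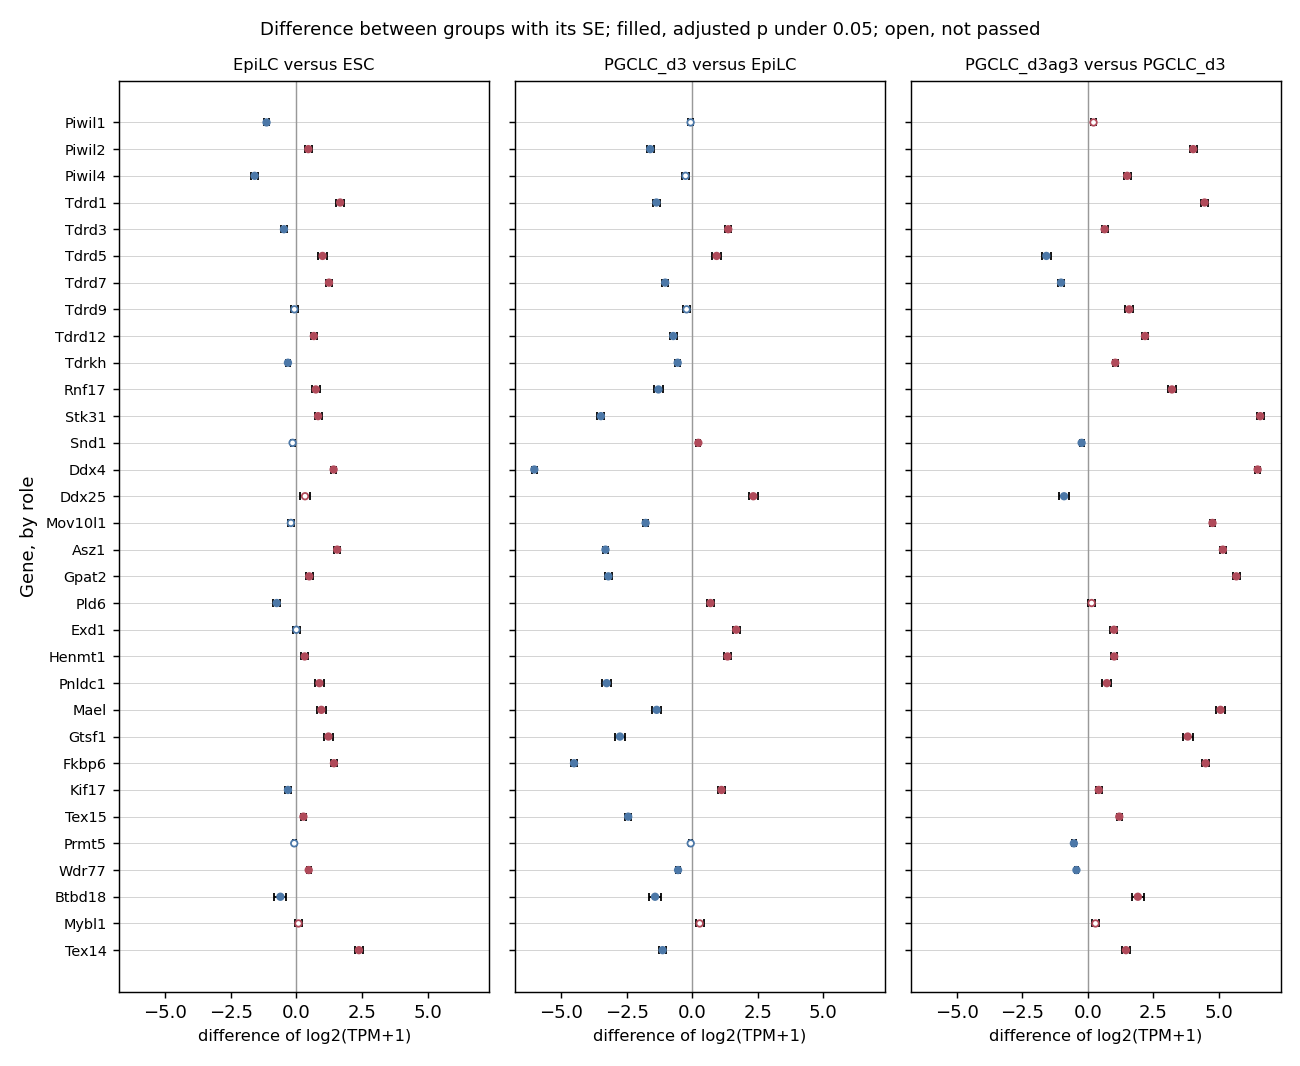
Difference of log2(TPM+1) for the 32 tested genes in EpiLC versus ESC, PGCLC_d3 versus EpiLC and PGCLC_d3ag3 versus PGCLC_d3, with bars for 1 SE, filled points where the adjusted p was under 0.05 and open points elsewhere. Most points lie right of 0 in the left and right panels and left of 0 in the middle panel, where Ddx4 reaches -6.02.

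The step to EpiLC asks which germ line genes are on as naive pluripotency is left. By role, 6 of 10 tested Tudor genes, 4 of 8 genes of processing and mitochondrial anchoring, 3 of 4 partner genes and 1 of 4 helicases rose in EpiLC against ESC, while 2, 2, 1 and 0 of them fell in the same order, with some genes counted in more than 1 role. The members that rose by at least 1 were Tex14 (log2 2.38), Tdrd1 (1.66), Asz1 (1.55), Fkbp6 (1.43), Ddx4 (1.42), Tdrd7 (1.24) and Gtsf1 (1.22). Piwil4 (-1.60) and Piwil1 (-1.14) fell by at least 1. By limma (p adjusted by Benjamini-Hochberg) 18 of 32 tested members rose (56.2%) and 7 fell (21.9%), against 35.4% and 31.8% of all 13571 tested genes. Called in either direction were 25 members (78.1%) and 67.3% of all tested genes, and 12.5% of all tested genes rose and 10.8% fell by at least 1, against 7 and 2 members. The member median was 0.39 and the median of all tested genes 0.04. Counts run over the 32 members that passed the filter of 1 TPM in 2 libraries, and 3 of them (Piwil1, Tdrd9 and Tdrd12) held that level in both libraries of 1 group alone. That group was ESC for Piwil1, which is counted as a fall here, and PGCLC_d3ag3 for Tdrd9 and Tdrd12. The calls of Piwil2 (adjusted p = 0.0796 without ESC replicate 1 and 0.097 without EpiLC replicate 1), Gpat2 (0.08 and 0.101 without the same libraries) and Tdrkh (0.0563 without ESC replicate 2 and 0.0577 without EpiLC replicate 2) were lost when 1 library was left out. Henmt1, Tex15, Btbd18 and Kif17, with adjusted p of 0.0478, 0.0445, 0.0345 and 0.0398, lost their calls under several settings. Without ESC replicate 1 their adjusted p was 0.191, 0.299, 0.19 and 0.142 in that order. The summed level of 10 fibroblast and feeder genes was 48.9 to 89.3 TPM in EpiLC and 24.9 to 29.6 TPM in ESC, with 6 and 4 of them at 1 TPM or more, and its part in these differences was not tested.

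From EpiLC to PGCLC_d3 the question is what happens to these genes as germ cell fate is induced. Most of them fell, led by Ddx4 (log2 -6.02), Fkbp6 (-4.50), Stk31 (-3.48), Asz1 (-3.31), Pnldc1 (-3.26), Gpat2 (-3.19), Gtsf1 (-2.75) and Tex15 (-2.44). A smaller set rose, among them Ddx25 (2.33), Exd1 (1.68), Tdrd3 (1.38), Henmt1 (1.35) and Kif17 (1.12). In limma 19 of 32 tested members fell (59.4%) and 8 rose (25%), against 27.6% and 47.3% of all tested genes, and 84.4% of members and 74.9% of all tested genes were called in either direction. Falls of at least 1 were seen for 16 members, against 10.8% of all tested genes, and rises of at least 1 for 5, against 18.7%. The member median was -0.88, while the median of all tested genes was 0.21 as deposited, -0.016 after median-of-ratios scaling and 0.018 after quantile normalization, and the share of higher genes among all calls was 63.2%, 49.2% and 51.1% in turn. With these scalings 7 members rose under each, and 21 and 19 fell. Prmt5, which did not pass as deposited (-0.06), was at -0.323 after median-of-ratios scaling (adjusted p = 0.00139), and the rise of Snd1 (0.24, adjusted p = 0.0157) ended under it at -0.031 (adjusted p = 0.701). The Snd1 call also ended without EpiLC replicate 1 (adjusted p = 0.137) and without PGCLC_d3 replicate 2 (adjusted p = 0.0942). The 10 fibroblast and feeder genes summed to 23.9 to 28.3 TPM in PGCLC_d3, with Dcn and Lum at 0, and to 48.9 to 89.3 TPM in EpiLC, and 2 and 6 of them were at 1 TPM or more. Col3a1 averaged 0.505 ± 0.688 TPM in PGCLC_d3 and 22.1 ± 13.5 in EpiLC, and Tagln 20.4 ± 5.46 in PGCLC_d3 and 5.85 ± 1.202 in EpiLC (SD, n = 2 each). Their part in these differences was not tested.

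Promoters of the members were searched for a pair of motifs and for CpG content. RefSeq promoters of GRCr8, from 250 bases before to 50 bases after the start, were at hand for 30 of the 36 members, and the first listed start of each gene was used. Promoters of Piwil2, Tdrd3, Tdrd9, Rnf17, Tex15 and Mybl1 were not used here. The E-box CACGTG, a palindrome that reads the same on both strands and is bound by dimers that contain MAX, was in 10 of the 30 member promoters (33.3%), and in 8.1% of 14965 promoters of genes named in the table. Among members that fell by at least 1 in PGCLC_d3 against EpiLC it was in 7 of 13, and among the other members in 3 of 17. These 17 include Tdrd6, Gtsf1l, Spocd1 and Morc1, which were not tested, so could not be called, and had no E-box. Among all tested genes with a promoter entry that fell by at least 1 it was in 10.1% of 1023, close to the 9.5% of all 10272 tested genes with an entry. The E2F-like motif GGCGGGA, searched on both strands, was in 7 of 30 member promoters (23.3%) and in 17% of those of the table, and it overlapped no E-box in the members. A CpG ratio (observed over expected) of at least 0.6 was found in 22 of 30 member promoters (73.3%) and in 55.5% of those of the table. These matches are letters in a window, and binding was not measured. The 7 windows are those of the members with both an E-box and a fall of at least 1, while Asz1, Gpat2 and Gtsf1 fell by more than Mael, Tdrd1 and Mov10l1 and had no E-box in their promoters. Each holds up to 36 bases on either side of the E-box (in Pnldc1, the one farther from the start), read 5′ to 3′ on the gene's strand, with the E-box in capitals.
Ddx4, chr2:46015990-46016067, - strand: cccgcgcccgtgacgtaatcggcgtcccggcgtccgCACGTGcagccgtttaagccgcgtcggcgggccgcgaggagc
Mael, chr13:81029803-81029873, - strand: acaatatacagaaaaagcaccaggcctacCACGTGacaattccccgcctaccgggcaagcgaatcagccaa
Tdrd1, chr1:265880902-265880979, + strand: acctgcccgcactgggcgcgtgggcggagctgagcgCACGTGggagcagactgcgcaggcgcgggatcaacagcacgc
Stk31, chr4:79701581-79701658, + strand: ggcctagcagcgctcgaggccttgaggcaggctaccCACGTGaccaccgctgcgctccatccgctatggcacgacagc
Mov10l1, chr7:121949632-121949709, + strand: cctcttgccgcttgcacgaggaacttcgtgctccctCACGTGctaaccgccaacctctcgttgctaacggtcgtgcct
Fkbp6, chr12:26956039-26956116, + strand: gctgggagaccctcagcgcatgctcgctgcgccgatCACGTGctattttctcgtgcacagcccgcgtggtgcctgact
Pnldc1, chr1:50390920-50390997, + strand: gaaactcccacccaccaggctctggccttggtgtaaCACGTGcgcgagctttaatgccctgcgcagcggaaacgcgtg
Counted in bases from the start, the first base of the E-box lay at -80 in Ddx4, -221 in Mael, -87 in Tdrd1, -124 in Stk31, -154 in Mov10l1, -56 in Fkbp6 and -50 in Pnldc1, which has another at -3. Piwil1, Ddx25 and Wdr77 were the other members with the motif.

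The comparison of PGCLC_d3ag3 with PGCLC_d3 asks how these genes differ after 3 further days in aggregates with gonadal somatic cells, and as no group of the same age without somatic cells was analysed here, time and contact cannot be told apart. Most members rose, and the largest rises were those of Stk31 (log2 6.57), Ddx4 (6.47), Gpat2 (5.66), Asz1 (5.15), Mael (5.06), Mov10l1 (4.75), Fkbp6 (4.49), Tdrd1 (4.45) and Piwil2 (4.02). Tdrd5 (-1.58), Tdrd7 (-1.02), Ddx25 (-0.91), Prmt5 (-0.53) and Wdr77 (-0.43) fell. In limma 23 of 32 tested members rose (71.9%) and 6 fell (18.8%), against 25.7% and 44.8% of all tested genes, and 90.6% of members and 70.4% of all tested genes were called in either direction. Rises of at least 1 were seen for 19 members, against 6.55% of all tested genes. Among the 19 were Tdrd9 and Tdrd12, which passed the filter on low values only through PGCLC_d3ag3, so the filter favoured a rise for them. The member median was 1.33 and the median of all tested genes -0.18, and this comparison shares its PGCLC_d3 libraries with the one before. After median-of-ratios scaling and quantile normalization the median of all tested genes was -0.004 and -0.01, the share of higher genes among all calls was 50% and 49.4% in place of 36.4%, and 25 members rose under each, with 5 and 6 falling. The sixth fall, of Snd1 (-0.24, adjusted p = 0.0165), ended after median-of-ratios scaling (adjusted p = 0.776), without PGCLC_d3 replicate 2 (0.0984) and without PGCLC_d3ag3 replicate 1 (0.105). The rise of Kif17 (0.42, adjusted p = 0.0127) ended without PGCLC_d3 replicate 1 (0.0941).

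Marker genes of other cell types were measured beside these rises. Summed over 12 genes of gonadal somatic cells the level was 44.5 to 52.5 TPM in PGCLC_d3ag3 and 33.4 to 36.7 TPM in PGCLC_d3, with 5 and 3 of them at 1 TPM or more in both libraries and none listed at 0 in both libraries of either group. Kitlg made up most of the sum, at 30.3 ± 9.01 TPM in PGCLC_d3ag3 and 24.7 ± 1.05 in PGCLC_d3, whereas Foxl2 stood at 0.375 ± 0.122 and 0.034 ± 0.049 (SD, n = 2 each). Gata4, Lhx9, Wt1, Nr5a1, Amhr2 and Emx2 were also higher in both PGCLC_d3ag3 libraries than in PGCLC_d3, at 5.122 TPM or less. Pdgfra was lower, at 0.206 ± 0.0455 TPM in PGCLC_d3ag3 and 0.421 ± 0.011 in PGCLC_d3 (SD, n = 2 each). Kitlg, Fst, Bmp2 and Tcf21 overlapped between these groups. Gata4 averaged 4.91 ± 0.301 TPM in PGCLC_d3ag3 and 2.60 ± 0.083 in PGCLC_d3, and Lhx9 averaged 1.02 ± 0.159 and 0.720 ± 0.224 (SD, n = 2 each). Wt1 averaged 1.22 ± 0.079 TPM in PGCLC_d3ag3 and 0.051 ± 0.015 in PGCLC_d3, and Nr5a1 averaged 0.807 ± 0.085 and 0.074 ± 0.028 (SD, n = 2 each). Amhr2 averaged 3.998 ± 0.365 TPM in PGCLC_d3ag3 and 0.414 ± 0.023 in PGCLC_d3, and Emx2 averaged 0.472 ± 0.033 and 0.048 ± 0.018 (SD, n = 2 each). The 10 fibroblast genes summed to 13.1 to 15.8 TPM in PGCLC_d3ag3, with Lum and Acta2 at 0, and to 23.9 to 28.3 TPM in PGCLC_d3, with Dcn and Lum at 0 and 2 of them at 1 TPM or more in each group. Most of the PGCLC_d3 sum was Tagln, at 0.791 ± 0.441 TPM in PGCLC_d3ag3 and 20.4 ± 5.46 in PGCLC_d3 (SD, n = 2 each). Stromal genes of that list were mixed. Postn was higher in PGCLC_d3ag3 than in PGCLC_d3, at 7.58 ± 1.24 and 0.221 ± 0.124 TPM, as were Col3a1 at 3.51 ± 0.804 and 0.505 ± 0.688 TPM and Dcn at 1.35 ± 0.554 and 0 TPM (SD, n = 2 each). Col1a2 was lower, at 0.563 ± 0.306 and 2.69 ± 0.4595 TPM, as was Pdgfrb at 0.103 ± 0.1455 and 0.675 ± 0.120 TPM (SD, n = 2 each). Col1a1 averaged 0.472 ± 0.226 and 1.14 ± 0.933 TPM, with overlapping libraries (SD, n = 2 each). The 6 endothelial and blood genes summed to 136 to 139 TPM in PGCLC_d3ag3 and 20.3 to 21.1 TPM in PGCLC_d3, with 1 and 2 of them at 1 TPM or more, Tek at 0 in PGCLC_d3ag3 and Ptprc at 0 in PGCLC_d3. Pecam1, which pluripotent and germ cells express too, held nearly all of that, at 137 ± 1.96 and 17.8 ± 0.738 TPM (SD, n = 2 each). The part of these lists in the rises was not tested.

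EpiLC, and ESC too, held part of the level that PGCLC_d3ag3 showed. For the 19 members that rose by at least 1 with aggregation, the EpiLC mean was 6.08% to 237% of the PGCLC_d3ag3 mean, with a median of 21.4%. The median was 12.3% for ESC (range 0.71% to 198%) and 1.90% for PGCLC_d3 (range 0.35% to 46.9%). These genes were chosen by their difference between PGCLC_d3ag3 and PGCLC_d3, so the shares are a description. A low PGCLC_d3 share follows from that choice, and it cannot be weighed against the ESC and EpiLC shares. The choice also favours a high PGCLC_d3ag3 mean, the base of every share, and so tends to lower the ESC and EpiLC shares. In EpiLC, 9 of the 19 were under 20% of the PGCLC_d3ag3 mean, among them Mael (6.08%), Tdrd1 (9.03%), Stk31 (11.1%), Mov10l1 (11.5%) and Piwil2 (17.4%). Another 4 were between 20% and 50%, and 6 were at 50% or more: Btbd18 (62.9%), Tdrkh (70.2%), Ddx4 (73.1%), Tex14 (78.5%), Fkbp6 (101%) and Tex15 (237%). The ESC share exceeded the EpiLC share for Piwil4 (136% and 22.65%), Btbd18 (111% in ESC), Tdrkh (88.9% in ESC), Mov10l1 and Tdrd9. It was lower for the rest, Tex15 included (198% in ESC).

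**Figure D4:**
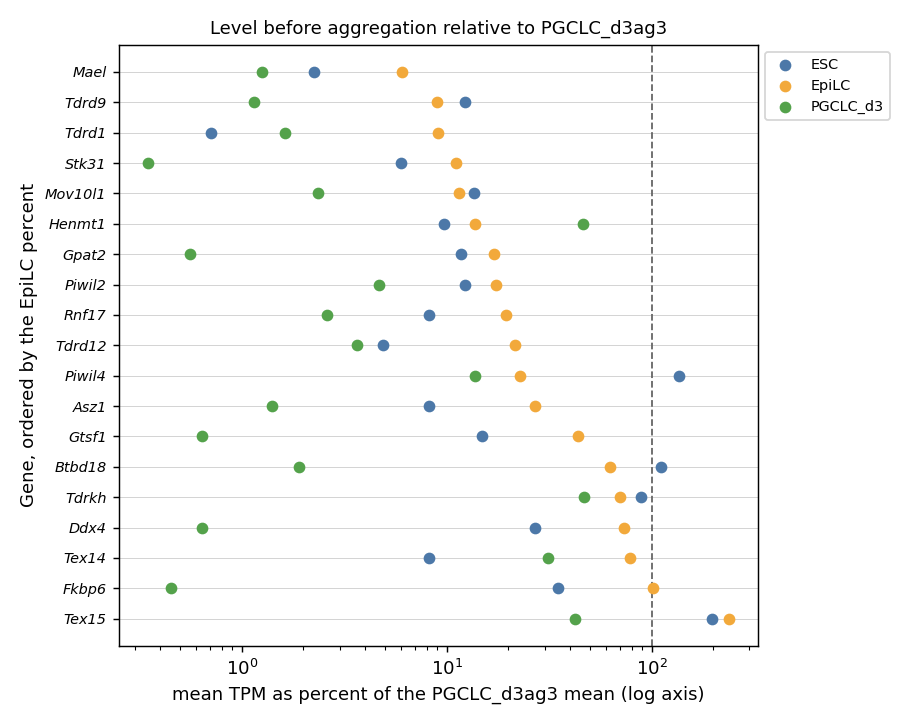
Mean TPM of ESC, EpiLC and PGCLC_d3 as a percent of the PGCLC_d3ag3 mean (log axis, dashed line at 100%) for the 19 genes that rose by at least 1 with aggregation, ordered by the EpiLC percent. EpiLC runs upward from 6.08% for Mael to 237% for Tex15, and PGCLC_d3 lies under 5% for most genes, with Henmt1, Tdrkh, Tex15, Tex14 and Piwil4 above.

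In the test of PGCLC_d3ag3 against EpiLC 21 of 32 tested members rose (65.6%) and 6 fell (18.8%), against 41% and 36.7% of all tested genes in limma, and 84.4% of members and 77.7% of all tested genes were called in either direction. Rises of at least 1 were seen for 17 members and falls of at least 1 for 3, against 17.2% and 17% of all tested genes. Among the 17 were Tdrd9 and Tdrd12, which passed the filter only through PGCLC_d3ag3. Mael (log2 3.70, SE 0.172, adjusted p = 3.52e-08), Stk31 (3.09, SE 0.132, adjusted p = 2.01e-08) and Tdrd1 (3.09, SE 0.147, adjusted p = 4.19e-08) had the largest rises. Ddx4 was higher by 0.46 (SE 0.096, adjusted p = 0.00155). Falls were seen for Pnldc1 (-2.53), Tdrd7 (-2.05), Tex15 (-1.24), Wdr77 (-0.97), Tdrd5 (-0.65) and Prmt5 (-0.59). The Tdrd5 call ended without PGCLC_d3ag3 replicate 1 (adjusted p = 0.0633). Tex14 (0.33, adjusted p = 0.0536) passed without EpiLC replicate 1 (adjusted p = 0.0244), and Btbd18 (0.49, adjusted p = 0.0693) without EpiLC replicate 2 (0.00862) or PGCLC_d3ag3 replicate 1 (0.034).

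A pair of lists of related genes were set beside the members. The first holds 20 further genes of the pathway, of chromatoid bodies and of the PRMT5 complex, of which 17 were tested. In limma 10 rose (58.8%) and 5 fell (29.4%) in EpiLC against ESC, beside 35.4% and 31.8% of all tested genes. In PGCLC_d3 against EpiLC 5 rose (29.4%) and 8 fell (47.1%), beside 47.3% and 27.6%. In PGCLC_d3ag3 against PGCLC_d3 7 rose (41.2%) and 7 fell (41.2%), beside 25.7% and 44.8%, so the share that fell was near that of all tested genes. Adad1 and Adad2, RNA-binding protein genes of the germ line, were at 34.8 ± 3.61 and 23.5 ± 0.373 TPM in PGCLC_d3ag3 and at 2.03 ± 0.238 and 1.58 ± 0.237 in PGCLC_d3 (SD, n = 2 each), with log2 differences of 3.56 (SE 0.153, adjusted p = 8.65e-08) and 3.25 (SE 0.153, adjusted p = 1.38e-07). Nxf2, an RNA export gene, rose by 3.43 (SE 0.142, adjusted p = 7.01e-08) in the same comparison. Dnmt3l, the cofactor of de novo DNA methylation that works downstream of fetal piRNAs in mouse, was already low in PGCLC_d3. It averaged 1080 ± 57.7 TPM in ESC, 293 ± 53.6 in EpiLC, 0.490 ± 0.518 in PGCLC_d3 and 0.316 ± 0.196 in PGCLC_d3ag3 (SD, n = 2 each). Its log2 difference was -7.66 (SE 0.214, adjusted p = 1.74e-09) between PGCLC_d3 and EpiLC. It was -7.80 (SE 0.214, adjusted p = 1.58e-09) between PGCLC_d3ag3 and EpiLC, and -0.14 (adjusted p = 0.573) between PGCLC_d3ag3 and PGCLC_d3.

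The second list holds 13 genes of the miRNA pathway, which uses Argonaute in place of PIWI proteins, and 12 were tested. In limma 9 rose (75%) and 3 fell (25%) in EpiLC against ESC, beside 35.4% and 31.8% of all tested genes. In PGCLC_d3 against EpiLC 5 rose (41.7%) and 4 fell (33.3%), near the 47.3% and 27.6% of all tested genes. In PGCLC_d3ag3 against PGCLC_d3 2 rose (16.7%) and 9 fell (75%), beside 25.7% and 44.8%. Its median log2 difference in that last comparison was -0.77, beside 1.33 for the piRNA members and -0.18 for all tested genes. Ago2, the Argonaute that cuts its targets, averaged 6.51 ± 0.228 TPM in PGCLC_d3ag3 and 17.04 ± 0.2299 in PGCLC_d3 (SD, n = 2 each; log2 -1.26, SE 0.103, adjusted p = 3.66e-06). Ago1 averaged 17.9 ± 0.861 and 45.9 ± 1.73 TPM in the same groups (log2 -1.31, SE 0.073, adjusted p = 3.34e-07). The difference between the lists was not tested.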

How the data were processed

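Per the labels' protocols, RNA came from PicoPure extraction, cDNA from the SMART-Seq v4 chemistry and sequencing libraries from KAPA Hyper Prep. The submitters' processing notes name bcl2fastq 2.20, cutadapt 1.1.6, HISAT2 2.1.0, featureCounts of Subread 1.6.5 and the build rn7. The deposited values are log2(TPM+1) per gene and library, made by the authors. The table has 33294 rows, of which 11066 have a blank gene name and were left out. TPM was recovered as 2 to the power of the value, less 1. Read totals are not kept by TPM, so depth was compared through the most frequent ratio of low values to those of ESC replicate 1. Mouse feeder reads were not examined.

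Genes with at least 1 TPM in at least 2 of 8 libraries (13571) were fitted with limma 3.58.1 in R 4.3.3 (lmFit, eBayes with trend, 2-sided), all 4 groups together, with 4 residual degrees of freedom. Calls use an adjusted p (Benjamini-Hochberg, over the 13571 genes) under 0.05. The fit was tested on simulated data with independent normal noise, which does not test whether the calls made here are right. The members, lists and tests were chosen with earlier results of these data known. Named genes are the members, companion genes that passed with a log2 difference of at least 1, and listed markers, apart from overlap partners. Promoters come from RefSeq tables of GRCr8, which is not the build of the files. Alternatives were other scalings, filters, pseudocounts, fits and leaving out each library.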

Additional observations from a re-analysis of the deposited data

How the results depend on the processing

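Of 128 member values (32 genes in 4 comparisons), 28 changed call or sign in at least 1 of 16 alternative settings. Sign changes concerned Mybl1, Exd1, Fkbp6 and Snd1. Under quantile normalization Mybl1 became -0.021 in EpiLC versus ESC and -0.039 in PGCLC_d3 versus EpiLC, and Snd1 became -0.031 in PGCLC_d3 versus EpiLC under median-of-ratios scaling. With a library left out, EpiLC versus ESC gave -0.031 to 0.183 for Mybl1 and -0.066 to 0.054 for Exd1, and PGCLC_d3ag3 versus EpiLC gave -0.145 to 0.121 for Fkbp6 and -0.084 to 0.081 for Snd1. The causes of these changes were not tested. The number of members that fell in EpiLC versus ESC was 7, against 3 among genes with at least 5 TPM in at least 2 libraries, which leaves fewer genes tested, and 4 to 7 with a library left out (4 without ESC replicate 2). Counted at 5 TPM instead of 1, the members expressed numbered 15 in ESC, 16 in EpiLC and 10 in PGCLC_d3. The other counts of members and of all genes stayed within 1.5 times.

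Replicate numbers do not pair the libraries by any label, and deviations of same-numbered libraries correlated at -0.037 to 0.066. With the replicate block 16 members rose and 7 fell in EpiLC versus ESC. The block left the member counts of PGCLC_d3 versus EpiLC at 8 and 19 and those of PGCLC_d3ag3 versus PGCLC_d3 at 23 and 6. With 2 libraries per group, small differences and genes under 1 TPM are the least certain.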
